A study of Mus musculus with 17 samples.

Results

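The 9 genes described here govern how lymphocytes read sphingosine 1-phosphate, a lipid signal usually written S1P, and whether they leave a tissue or stay in it. They are the receptor genes S1pr1, S1pr2, S1pr3 and S1pr4, the transcription factor gene Klf2, the retention gene Cd69, the S1P kinase gene Sphk1, the S1P lyase gene Sgpl1 and the S1P transporter gene Spns2. They were chosen by symbol, and all 9 were among the 17097 genes measured. Where a gene had several probe sets, the brightest over the 17 arrays stood for it.

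The arrays measured RNA of cells sorted from male NOD mice, an inbred strain whose lacrimal (tear) glands become infiltrated by lymphocytes and which serves as a model of Sjögren's syndrome. Gland B cells (4 arrays) and gland CD4 T cells (4 arrays) were compared with spleen B cells (3 arrays) and spleen CD4 T cells (3 arrays), and epithelial cells of the gland had 3 arrays. No transgene, knockout or drug is named for any group, so all groups shared the untreated NOD background. The gland cells came from mice aged 16 weeks. For the spleen cells the sample labels give 16 weeks and the design text gives 4 weeks, so tissue and age cannot be told apart if the design text holds. B cells were gated as CD45+ and B220+ without CD3, CD4 T cells as CD45+, CD3+ and CD4+ without B220, and both without NKp46, CD11b or CD11c. Epithelium was gated as CD326+ without CD45. These gates take all B cells and all CD4 T cells of a tissue together, whatever their stage of differentiation. Enzymatic digestion is stated for the gland and not for the spleen. The labels do not say whether arrays of a group came from separate animals or pools, so the p-values cover variation among these arrays alone, and that variation may be technical. The labels name 3 RNA samples of lower integrity, by numbers that no array label carries, so RNA quality could not be compared between groups.

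S1P is abundant in blood and lymph and scarce inside lymphoid tissue, and lymphocytes that carry the receptor S1PR1 follow this gradient out of the tissue. KLF2 is the transcription factor that drives S1pr1 in T cells, while CD69, a surface protein induced within hours of activation, binds S1PR1 and removes it from the cell surface. S1PR2 acts in the opposite way to S1PR1 by restraining migration, S1PR3 is a receptor of mouse marginal zone B cells, and S1PR4 is found mainly on blood cells. The gradient is set by SPHK1, which makes S1P, by SPNS2, which exports it from endothelial cells, and by the lyase SGPL1, which degrades it. The arrays measure RNA, so receptor protein at the cell surface was not measured.

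The sorted groups carried the marker genes of their labels, but the epithelial sort and the gland lymphocyte sorts also held RNA of other cell types' marker genes. Ms4a1, which encodes the B cell protein CD20, averaged 11.08 and 11.27 (log2 level) in gland and spleen B cells against 4.18 and 3.40 in the CD4 T cells, and Cd3e of the T cell receptor complex averaged 9.96 and 9.89 in the CD4 T cells against 5.57 and 4.93 in the B cells. In epithelium the CD326 gene Epcam averaged 10.68. Epithelial replicate 1 stood apart. The mean level over 5 leukocyte genes was 9.43 in that array, 4.19 and 4.15 in the other epithelial arrays, and 11.14 to 11.28 in the lymphocyte arrays, although the sort gated out CD45. The same epithelial arrays had mean levels of 8.16 to 8.63 over 12 endothelial genes, beside 3.76 to 4.49 in the lymphocyte arrays. A list of 9 epithelial genes averaged 5.79 to 6.19 in gland lymphocyte arrays and 3.76 to 3.96 in spleen lymphocyte arrays. Over 4 lacrimal secretory genes the means were 7.43 to 8.25 in gland and 3.86 to 5.98 in spleen lymphocyte arrays. Epithelial arrays had 8.97 to 9.47. Among these 4, Obp1a averaged 11.29 and 11.19 in gland B and CD4 T cells, beside 12.28 in epithelium. In the spleen it averaged 4.06 and 3.85. Of the 4, 2 were called higher in each gland subset by the rule below, beside 2.58% and 5.35% of all genes. The other 2 were not called. Immediate early genes, which respond to stimulation and to cell handling, had mean levels of 8.89 to 9.50 over 17 genes in the gland lymphocyte arrays and 6.28 to 6.82 in the spleen arrays. In sorted bulk samples, fewer cells of a type and less RNA per cell cannot be told apart.

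**Figure D1:**
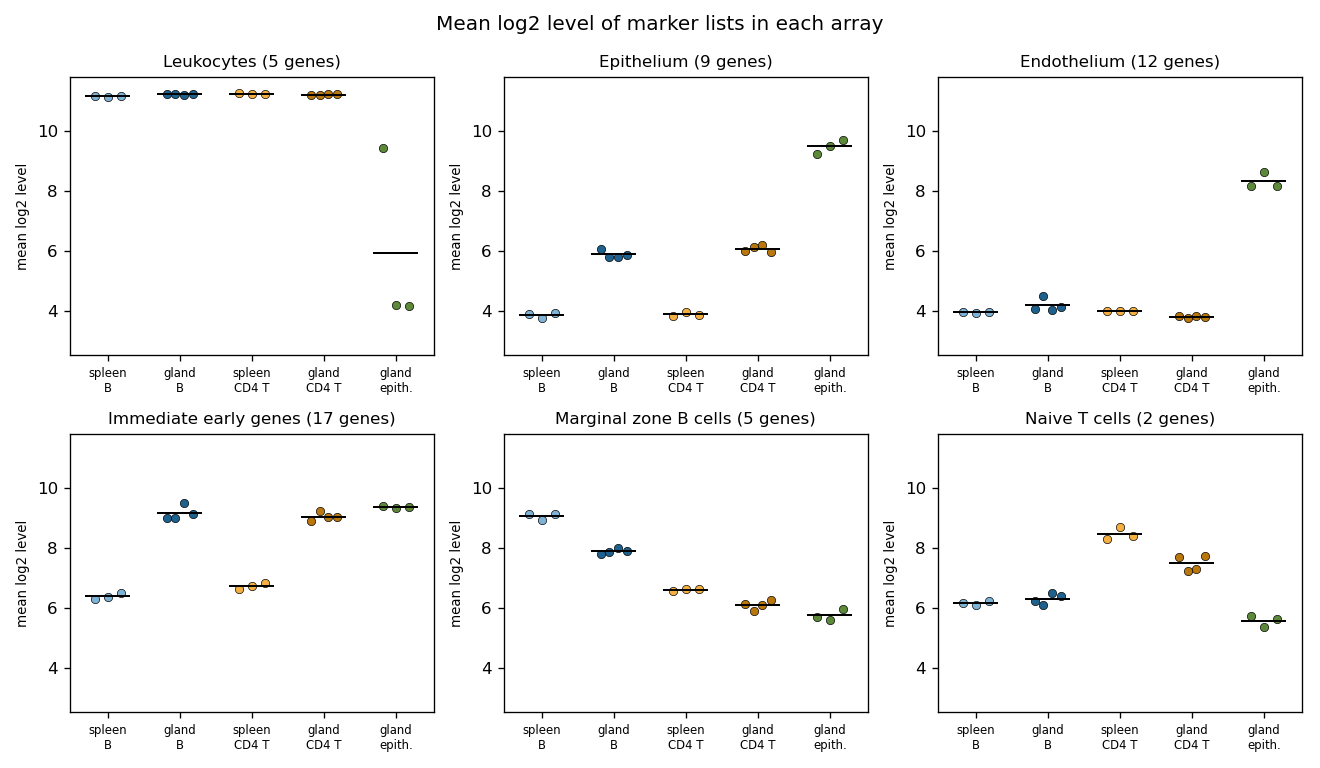
Mean log2 level of 6 marker lists in each array (vertical axis), by group (horizontal axis), with a point for each array and a bar at the group mean. Epithelial replicate 1 has a leukocyte level of 9.43 beside 4.19 and 4.15 in its group, and the endothelial list is high in all 3 epithelial arrays.

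Between gland and spleen the 9 genes did not move as a block, and other genes were called in B cells than in CD4 T cells. A gene was called where the limma fit over all genes gave a Benjamini-Hochberg adjusted p under 0.05 with a change of 2-fold or more. In B cells 2 of 9 genes were called, beside 4.18% of all genes. Klf2 rose in the gland, where 2.58% of all genes were called higher, and S1pr3 fell, where 1.60% were called lower. Of the 9 genes S1pr2 alone was called in CD4 T cells, beside 6.97% of all genes. It rose in the gland, where 5.35% of all genes were called higher and 1.62% lower. The arrays of gland and spleen did not overlap for 4 of 9 genes in B cells (30.5% of all genes) and for 5 of 9 in CD4 T cells (34.6% of all genes). Cd69 was higher in every gland array than in every spleen array of the same subset but was not called, because its spread in the shared model was set by epithelial replicate 1. Without that array Cd69 was called higher in both subsets, which makes 3 of 9 genes in B cells (4.26% of all genes) and 2 of 9 in CD4 T cells (7.09%). The same counts came from fits of only the arrays compared, with 3.98% of all genes called in B and 7.08% in CD4 T cells. With no fold minimum S1pr2, Sgpl1 and Spns2 passed in CD4 T cells, 3 of 9 beside 23.4% of all genes.

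**Figure D2:**
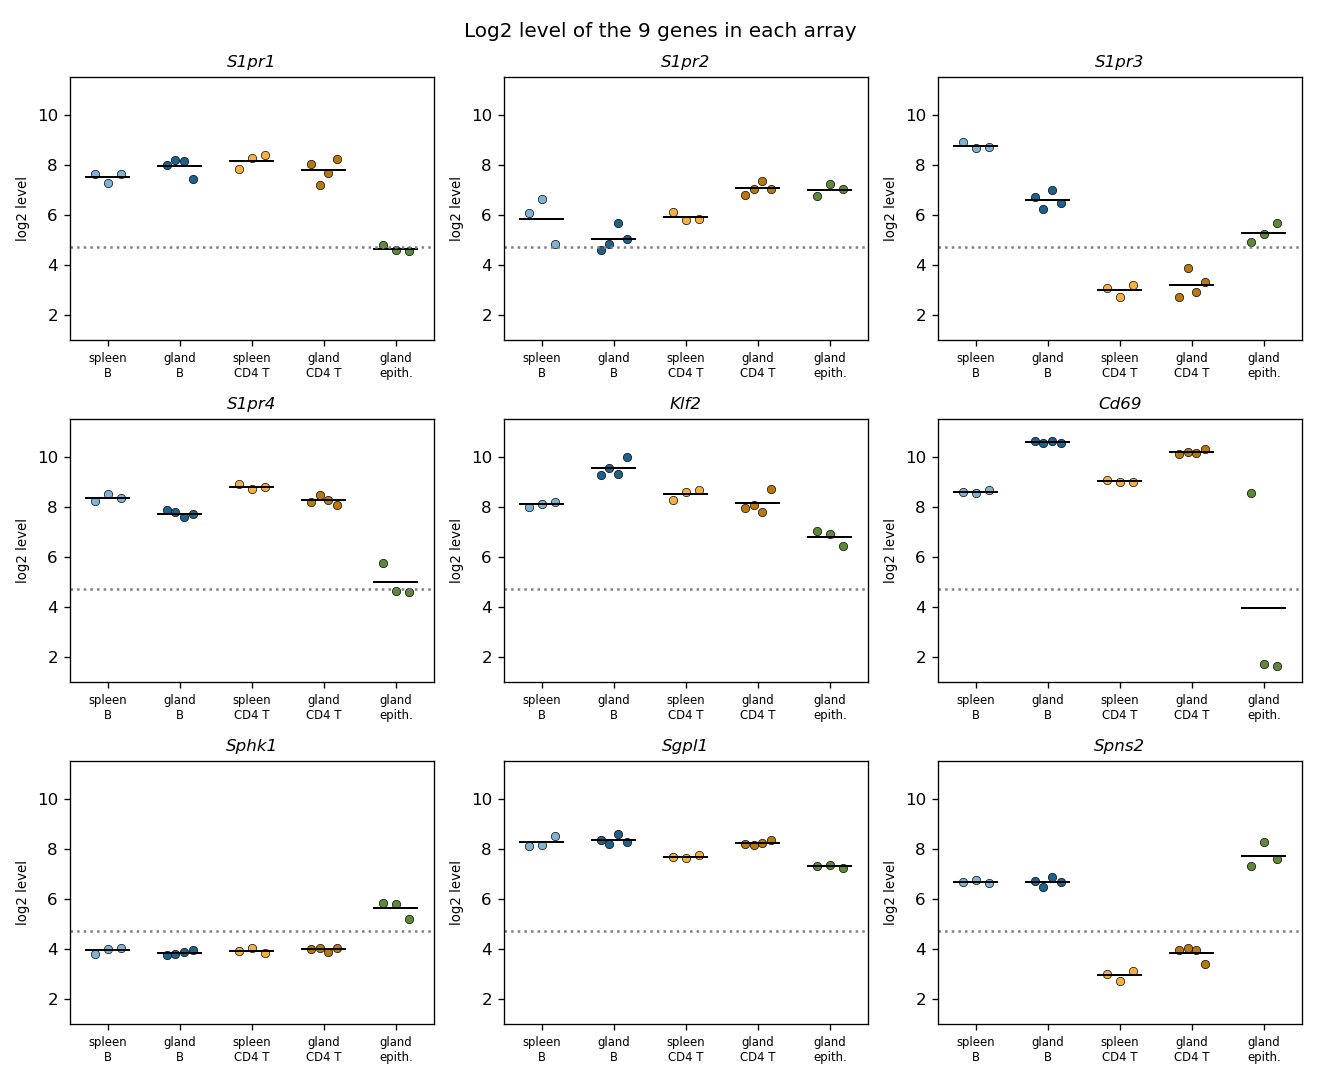
Log2 level of each of the 9 genes in each of the 17 arrays (vertical axis), by group (horizontal axis), with a point for each array, a bar at the group mean and a dotted line at 4.71, the median of all values. Klf2 stands highest in gland B cells (9.28 to 10.0023), S1pr3 highest in spleen B cells (8.68 to 8.90), and Cd69 at 10.13 to 10.63 in all gland lymphocyte arrays.

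S1pr1, the receptor that carries lymphocytes out of tissue, was not called between gland and spleen in either subset. In gland B cells its log2 levels were 8.01, 8.19, 8.15 and 7.45, and in spleen B cells 7.66, 7.27 and 7.65. Gland CD4 T cells read 8.03, 7.21, 7.69 and 8.25, and spleen CD4 T cells 7.83, 8.29 and 8.40. The gland and spleen arrays overlapped in both subsets, with the lowest gland B array inside the spleen range and the 2 lowest gland T arrays below it. The gland minus spleen difference was 0.42 in B cells (SE 0.23, 95% interval -0.06 to 0.91, adjusted p = 0.238). The CD4 T cell difference was -0.38 (SE 0.23, interval -0.87 to 0.10, adjusted p = 0.276). A 2-fold difference in either direction lies outside both intervals. The estimates had opposite signs, and the test of their difference gave -0.80 (CD4 T minus B, SE 0.32, adjusted p = 0.146), which did not pass. In epithelium S1pr1 read 4.81, 4.60 and 4.59, close to the median of all values.

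S1pr4, the receptor of blood cells, was lower in the gland by less than 2-fold in both subsets. Its levels were 7.86, 7.78, 7.58 and 7.71 in gland B cells and 8.22, 8.52 and 8.37 in spleen B cells. They were 8.19, 8.48, 8.29 and 8.08 in gland CD4 T cells and 8.90, 8.73 and 8.78 in spleen CD4 T cells. Every gland array lay below every spleen array of its subset. The difference was -0.64 in B cells (SE 0.21, adjusted p = 0.0446) and -0.54 in CD4 T cells (SE 0.21, adjusted p = 0.0715), and neither was called. Without epithelial replicate 1, in which S1pr4 read 5.76 beside 4.64 and 4.62, the same differences had an SE of 0.10 and adjusted p of 0.000481 and 0.000883. They stayed under the 2-fold minimum. The changes of the 2 subsets differed by 0.09 (SE 0.29, 95% interval -0.53 to 0.71).

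S1pr3, a receptor of marginal zone B cells, fell in gland B cells. Spleen B cells had levels of 8.90, 8.68 and 8.70, and gland B cells 6.74, 6.22, 7.01 and 6.49, with no overlap. The difference was -2.15 (SE 0.25, adjusted p = 2.66e-05), a 4.43-fold lower level in the gland. Among CD4 T cells the gene lay below the median of all values in every array, at 2.72 to 3.89 in the gland and 2.72 to 3.23 in the spleen, with a difference of 0.20 (SE 0.25, adjusted p = 0.655). The change of CD4 T cells exceeded that of B cells by 2.35 (SE 0.36, adjusted p = 0.000341). Counting S1pr3, 3 of 9 genes were called for a difference between the subsets in their gland against spleen change, beside 5.08% of all genes. For S1pr3 and S1pr2 the CD4 T cell change was the more positive (3.87% of all genes), and for Klf2 the B cell change (1.22%). Marginal zone B cell genes moved with S1pr3. Of 5 other genes of that list measured, 3 fell in gland B cells, beside 1.60% of all genes called lower. They were Dtx1 (-2.02), Cd1d1 (-1.44) and Cd9 (-1.32). None rose, and Cr2, which encodes the complement receptor CD21, changed by -0.43 and was not called. Dtx1 also fell in gland CD4 T cells (-2.40, adjusted p = 1.3e-06), where it was the 1 gene of these 5 called. The list's median was -1.32 beside 0.00 for all genes, and its mean level per array was 7.80 to 8.01 in the gland and 8.95 to 9.14 in the spleen. The part of these cells in the S1pr3 result was not tested. A second, dim probe set of S1pr3 read 3.48 and 3.47 in gland and spleen B cells, a difference of 0.01.

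S1pr2, the receptor that restrains migration, rose in gland CD4 T cells. Its levels were 6.82, 7.04, 7.34 and 7.06 in the gland and 6.11, 5.81 and 5.86 in the spleen, so every gland array lay above every spleen array. The difference was 1.14 (SE 0.32, adjusted p = 0.0174), or 2.20-fold. This call was lost without spleen replicate 2 (1.08, adjusted p = 0.0625) or spleen replicate 3 (1.10, adjusted p = 0.0571), and with arrays centred on their medians the difference was 0.98 (adjusted p = 0.0305), under the 2-fold minimum. Of 9 epithelial marker genes, 6 rose in gland CD4 T cells and 5 in gland B cells, beside 5.35% and 2.58% of all genes called higher. S1pr2 read 6.75 to 7.25 in epithelium, and the part of epithelial RNA in the CD4 T cell result was not tested. In B cells the gene read 4.60, 4.83, 5.70 and 5.05 in the gland and 6.07, 6.63 and 4.84 in the spleen. These ranges overlapped through spleen replicate 3, and the difference of -0.80 was not called (SE 0.32, adjusted p = 0.106). It was called without spleen replicate 3 (-1.30, adjusted p = 0.0036) and without gland replicate 3 (-1.02, adjusted p = 0.0432). The gland against spleen change was more positive in CD4 T cells than in B cells by 1.94 (SE 0.46, adjusted p = 0.0114).

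Of the genes that relay signals below these receptors, 11 were measured. The limma fit called none in B cells (median 0.12, with 3 at an unadjusted p under 0.05), beside 4.18% of all genes. It called 1 in CD4 T cells (median 0.09, with 4 at an unadjusted p under 0.05), beside 6.97%, namely Gnaq, a G protein alpha subunit that activates phospholipase C. Gnaq averaged 7.36 ± 0.08 (SD, n = 4) in CD4 T cells of the gland and 5.36 ± 0.19 (n = 3) in those of the spleen, a rise of 2.0004 (adjusted p = 6.5e-10), and 6.94 and 6.77 in gland and spleen B cells. Its change differed between the subsets by 1.83 (adjusted p = 3.09e-07). Gnaq averaged 8.50 in epithelium, and 6 of 9 epithelial markers rose in gland CD4 T cells, beside 5.35% of all genes. The part of epithelial RNA in the Gnaq rise was not tested. Gnai2, the inhibitory G protein subunit through which S1PR1 signals, changed by -0.06 in B and 0.16 in CD4 T cells and was not called.

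Klf2, the transcription factor that drives S1pr1 in T cells, rose in gland B cells. Its levels were 9.28, 9.57, 9.33 and 10.0023 in gland B cells and 7.99, 8.13 and 8.18 in spleen B cells, with no overlap. The difference was 1.44 (SE 0.22, adjusted p = 0.000252), a 2.72-fold higher level. The CD4 T cell levels of Klf2 were 7.94, 8.07, 7.82 and 8.72 in the gland and 8.26, 8.60 and 8.69 in the spleen. Of these gland arrays 3 lay below all spleen arrays and replicate 4 lay above them, and the difference of -0.38 was not called (SE 0.22, interval -0.84 to 0.08, adjusted p = 0.248). The changes differed between the subsets by -1.82 (CD4 T minus B, SE 0.31, adjusted p = 0.000828). In the same gland B cells S1pr1 was not called. Of 17 immediate early genes, 14 rose in gland B cells (median 2.67) and 10 in gland CD4 T cells (median 1.87), beside 2.58% and 5.35% of all genes called higher. Their part in the results for Klf2, Cd69 and the gene families below was not tested.

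The promoter windows of the called genes Klf2 and S1pr2 are printed because each holds a known response motif near its start. They are RefSeq sequences of assembly GRCm38.p6, from 250 bases before to 50 bases after the annotated start, and 7 of the 9 genes matched the promoter table. The Klf2 window is chr8:72318812-72319111 on the plus strand. Its capitals mark TAAATTTA, a form of the core of a site bound by MEF2 factors, at 117 to 110 bases before the start. The S1pr2 window is chr9:20976744-20977043 on the minus strand, and its capitals mark TGACGTCA, the cyclic AMP response element, at 181 to 174 bases before the start. Both motifs read the same on either strand. Each was picked for its gene, and no other motif was searched. The window of S1pr3, also called between gland and spleen, is not printed.
Klf2: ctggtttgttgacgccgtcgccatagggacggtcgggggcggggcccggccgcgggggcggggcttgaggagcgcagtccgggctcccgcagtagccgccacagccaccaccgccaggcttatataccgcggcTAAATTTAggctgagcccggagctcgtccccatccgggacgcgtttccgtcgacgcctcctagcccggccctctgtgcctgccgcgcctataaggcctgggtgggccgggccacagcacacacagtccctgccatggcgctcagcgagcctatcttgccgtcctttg
S1pr2: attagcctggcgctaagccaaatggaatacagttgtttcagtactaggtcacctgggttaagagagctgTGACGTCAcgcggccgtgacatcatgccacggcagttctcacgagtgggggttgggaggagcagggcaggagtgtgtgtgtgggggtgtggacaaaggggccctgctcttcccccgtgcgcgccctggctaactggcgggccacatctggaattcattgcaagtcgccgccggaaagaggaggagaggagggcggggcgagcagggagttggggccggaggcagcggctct
The exact letters TAAATTTA were present in 179 of 32851 promoter windows (0.545%) and TGACGTCA in 588 (1.79%). Other spellings of either site were not searched, so these are not shares of all such sites. Among the 11 windows of the members, each motif occurred in 1. These matches describe the letters of the windows and say nothing of binding in the sorted cells.

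Some of the other Kruppel-like factor genes, the family of Klf2, rose in the gland. Of 9 measured, 3 rose in B and 4 in CD4 T cells, beside 2.58% and 5.35% of all genes called higher, and 6 and 5 were not called. Their medians were 0.69 and 0.54 beside 0.00 and -0.03 for all genes. Klf4, a factor that holds lymphocytes in quiescence, averaged 9.996 ± 0.213 (SD, n = 4) in B cells of the gland and 5.38 ± 0.10 (n = 3) in those of the spleen, a rise of 4.61 (adjusted p = 1.49e-11). Klf4 in CD4 T cells averaged 9.23 ± 0.29 and 4.06 ± 0.21, a rise of 5.16 (adjusted p = 1.7e-12). Klf9, a glucocorticoid-responsive factor, rose by 1.88 and 3.30, and Klf6 by 1.58 and 1.05. In epithelium Klf9 averaged 9.85, which was 2.77 above the mean of the gland lymphocytes, and Klf4 and Klf6 averaged 9.98 and 11.10. Epithelial markers rose in the same gland lymphocytes (5 of 9 in B and 6 of 9 in CD4 T cells), and the part of epithelial RNA in the rises of these 3 genes was not tested. Klf12 rose by 2.19 in CD4 T cells and changed by 0.99 in B cells. It averaged 6.49 in epithelium, and the part of epithelial RNA in its CD4 T cell rise was not tested. In spleen CD4 T cells Klf4, Klf9 (3.80) and Klf12 (3.86) averaged below the median of all values. Their CD4 T cell rises are therefore ratios of deposited values. Klf2, at -0.38 in CD4 T cells, was not called there.

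Genes that KLF2 and FOXO1 are known to control, or that serve entry into lymph nodes, were mostly not called. Of the 6 measured, the limma fit called none in B cells (median -0.08, with 1 at an unadjusted p under 0.05), and in CD4 T cells Rasgrp2 alone was called (median -0.30, with 3 at an unadjusted p under 0.05), beside 4.18% and 6.97% of all genes. Rasgrp2 encodes an activator of Rap proteins and integrins, and it averaged 7.85 ± 0.07 (SD, n = 4) in CD4 T cells of the gland and 9.48 ± 0.03 (n = 3) in those of the spleen, a difference of -1.62 (adjusted p = 6.91e-08). In B cells it changed by -0.33 (adjusted p = 0.0702), and the changes differed by -1.29 (adjusted p = 8.87e-05). Foxo1 changed by 0.14 in B and -0.0048 in CD4 T cells. Its mean levels of 4.78 to 4.92 in the lymphocyte groups lay close to the median of all values. The 2 measured genes of a naive T cell list averaged 7.24 to 7.74 in the gland and 8.28 to 8.70 in the spleen arrays of CD4 T cells, and Lef1 among them fell by 1.42 (adjusted p = 0.000124). The part of naive T cells in these results was not tested.

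Cd69, whose product removes S1PR1 from the cell surface, was higher in all gland lymphocyte arrays than in all spleen lymphocyte arrays. Gland B cells read 10.63, 10.54, 10.62 and 10.54, and spleen B cells 8.59, 8.54 and 8.66. Gland CD4 T cells read 10.13, 10.17, 10.16 and 10.29, and spleen CD4 T cells 9.09, 9.01 and 8.99. Within a lymphocyte group the SD was 0.05 to 0.07, while the epithelial arrays read 8.57, 1.72 and 1.66. The gland minus spleen difference was 1.98 in B cells, or 3.96-fold, and 1.16 in CD4 T cells, or 2.23-fold. With all arrays the SE was 1.10 and neither was called (adjusted p = 0.254 and 0.537). Without epithelial replicate 1 the differences were unchanged, and both were called (SE 0.07, adjusted p = 4.04e-11 and 5.54e-09). In fits of only the arrays compared they were also called (adjusted p = 2.81e-06 and 1.3e-05). The rise was larger in B cells than in CD4 T cells by 0.83 without that array (SE 0.09, adjusted p = 2.22e-05), which is under the 2-fold minimum, and with it this difference did not pass (adjusted p = 0.835).

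Of 11 other genes of tissue retention and positioning measured, 3 rose and none fell in gland B cells, beside 2.58% of all genes called higher and 1.60% lower, and 8 were not called. In CD4 T cells of the gland 6 rose and 1 fell, beside 5.35% and 1.62%, and 4 were not called. The medians of the list were 0.19 and 1.49, beside 0.00 and -0.03 for all genes. Without epithelial replicate 1, an alternative added after the data had been seen, 3 of the 11 rose and 0 fell for B cells. That fit called 452 of all 17097 genes higher and 276 lower for this subset. For CD4 T cells it called 8 of the 11 higher and 1 lower, beside 933 and 280 of all genes. Rgs1, which damps signals of G protein-coupled receptors such as those for chemokines, averaged 7.61 ± 0.41 (SD, n = 4) in B cells of the gland and 3.14 ± 0.09 (n = 3) in those of the spleen, a rise of 4.47 (adjusted p = 0.000686). Among CD4 T cells Rgs1 averaged 9.92 ± 0.15 and 6.63 ± 0.10, a rise of 3.29 (adjusted p = 0.0042). The spleen B cell level of Rgs1 lay below the median of all values, so its B cell rise is a ratio of deposited values. Rgs2, of the same family, rose by 2.18 in B and 3.72 in CD4 T cells. It averaged 9.53 in epithelium, and the part of epithelial RNA in its rises was not tested.

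Itgae, which encodes the CD103 integrin chain that binds epithelial cadherin, rose by 2.53 in CD4 T cells (adjusted p = 1.22e-09) and changed by 0.19 in B cells. Prdm1, the transcription factor BLIMP1, rose by 2.33 in CD4 T cells (adjusted p = 2.51e-05) and changed by -0.59 in B cells. It averaged 6.97 in epithelium, and the part of epithelial RNA in its CD4 T cell rise was not tested. The changes differed between the subsets for Itgae (2.35, adjusted p = 4.75e-07), Prdm1 (2.92, adjusted p = 0.000206), Rgs2 (1.54, adjusted p = 5.86e-06) and Cxcr5 (1.17, adjusted p = 0.0249). Gpr183, the oxysterol receptor that guides B cell positioning in lymphoid tissue, rose by 2.05 in B cells (adjusted p = 0.0040). The CD4 T cell change of Gpr183 was 1.17, called only without epithelial replicate 1 (adjusted p = 0.0669 with it and 5.37e-06 without). P2ry10, a lysophospholipid receptor gene, changed by 1.29 in CD4 T cells and was likewise called only without that array (adjusted p = 0.310 with it and 1.31e-06 without). Gpr34, another lysophospholipid receptor gene, fell by 1.56 in CD4 T cells, to a gland level of 3.66 that lay below the median of all values.

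**Figure D3:**
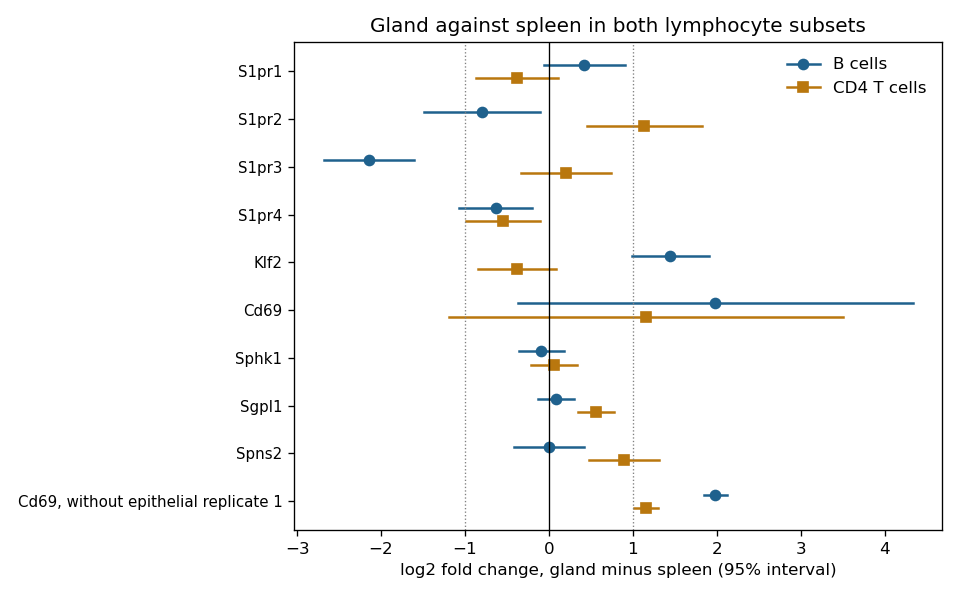
Gland minus spleen log2 fold change of the 9 genes (horizontal axis) with 95% intervals from the limma fit, in B cells (circles) and CD4 T cells (squares), with dotted lines at a 2-fold change in either direction. The bottom line shows Cd69 without epithelial replicate 1, where its interval runs from 1.84 to 2.12 in B cells and from 1.02 to 1.30 in CD4 T cells.

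**Figure D4:**
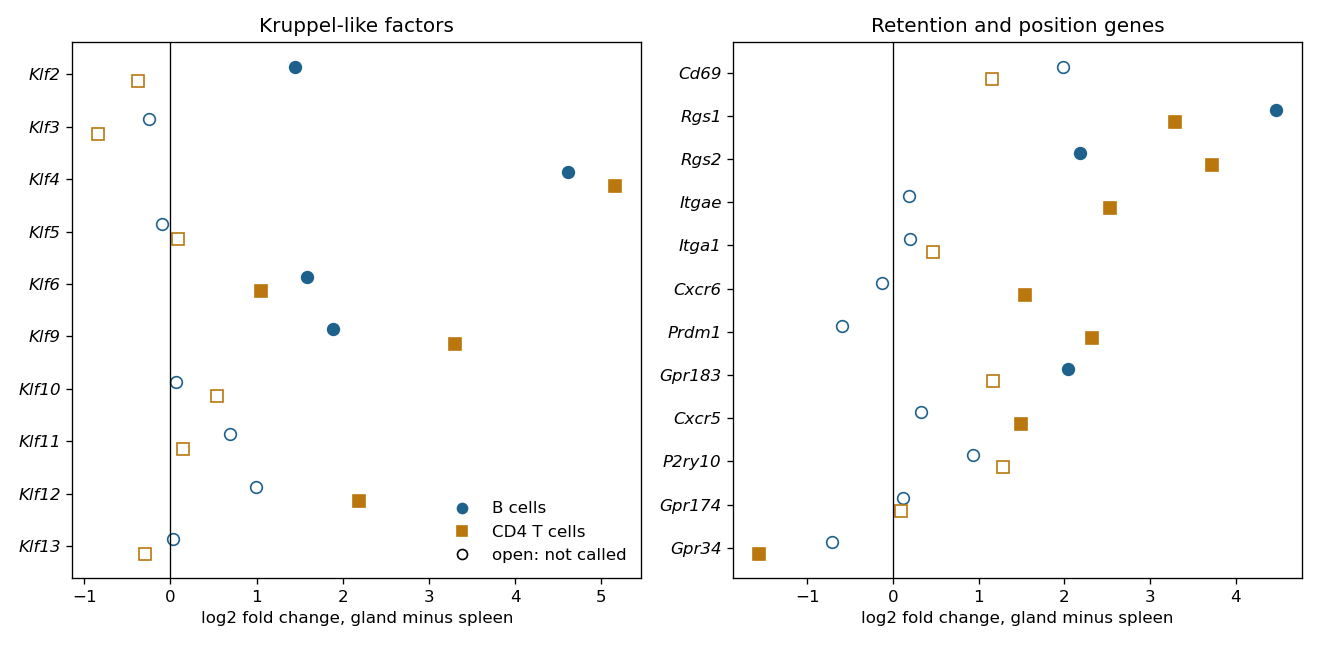
Gland minus spleen log2 fold change (horizontal axis) of Klf2 with 9 other Kruppel-like factor genes and of Cd69 with 11 retention and position genes, in B cells (circles) and CD4 T cells (squares). Filled symbols were called with all arrays and open symbols were not, with Klf4 at 4.61 and 5.16 and Rgs1 at 4.47 and 3.29 at the far right.

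The genes that make, degrade and export S1P were mostly not called in lymphocytes between gland and spleen. Sphk1, the kinase that makes S1P, lay below the median of all values in all 14 lymphocyte arrays, at 3.77 to 4.06. Sgpl1, the lyase, read 8.21, 8.15, 8.26 and 8.34 in gland CD4 T cells and 7.67, 7.62 and 7.76 in spleen CD4 T cells. The gland arrays were all higher, by 0.56 (SE 0.10, adjusted p = 0.000688), or 1.47-fold, which is under the 2-fold minimum. In B cells the difference in Sgpl1 was 0.08 (interval -0.13 to 0.30). A second, dim probe set of Sgpl1 averaged 4.16 in gland and 3.54 in spleen B cells.

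Spns2, the S1P transporter, read 6.72, 6.47, 6.90 and 6.68 in gland B cells and 6.68, 6.75 and 6.65 in spleen B cells, a difference of 0.00 (interval -0.41 to 0.42). The CD4 T cell levels were 3.98, 4.04, 3.96 and 3.42 in the gland and 2.999, 2.74 and 3.12 in the spleen. These ranges did not overlap, but all lay below the median of all values. The difference of 0.90 (SE 0.19, adjusted p = 0.0028) was under the 2-fold minimum, and without gland replicate 4 it was 1.04 and called. Spns2 was highest in epithelium, and the part of epithelial RNA in gland CD4 T cells was not tested.

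Of 21 other genes of S1P and ceramide metabolism, the limma fit called none in B cells (median 0.09, with 7 at an unadjusted p under 0.05) and Plpp1 alone in CD4 T cells (median 0.06, with 12 at an unadjusted p under 0.05), beside 4.18% and 6.97% of all genes. Plpp1, a phosphatase that removes the phosphate of S1P outside the cell, averaged 6.52 ± 0.48 (SD, n = 4) in CD4 T cells of the gland and 5.07 ± 0.42 (n = 3) in those of the spleen, a rise of 1.45 (adjusted p = 0.0033). In B cells Plpp1 changed by 0.87 (adjusted p = 0.0761). Plpp1 averaged 11.02 in epithelium, and 6 of 9 epithelial markers rose in gland CD4 T cells, beside 5.35% of all genes. The part of epithelial RNA in the Plpp1 rise was not tested. Plpp3, of the same enzyme family, was the only 1 of these 21 genes called for a difference between the subsets (1.12, adjusted p = 0.0022). Of all genes, 5.08% were called in that comparison. Its changes were -0.74 in B and 0.39 in CD4 T cells, neither called. Cers6 (-0.89, adjusted p = 0.0101), Plpp2 (0.68, adjusted p = 0.0125) and Asah2 (0.75, adjusted p = 0.0134) also differed, but under the 2-fold minimum. S1pr5, the remaining S1P receptor gene, changed by -0.12 in B and -0.61 in CD4 T cells and was not called. Its mean levels of 3.22 to 3.83 in the lymphocyte groups lay below the median of all values.

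The epithelial sort differed from the mean of gland B and gland CD4 T cells in 6 of 9 genes, beside 25.1% of all genes. Of these 4 were lower in epithelium (10.3% of all genes) and 2 higher (14.9%). The arrays did not overlap for 7 of 9 genes (44.7%). Without epithelial replicate 1, 7 of 9 genes were called, beside 25.8%. S1pr1 was 9.22-fold lower (adjusted p = 8.3e-10), S1pr4 7.94-fold lower (adjusted p = 5.92e-10), Klf2 4.13-fold lower (adjusted p = 1.04e-07) and Cd69 lower by a log2 difference of -6.40 (SE 0.98, adjusted p = 2.76e-05). Without epithelial replicate 1 the Cd69 difference was -8.69. Sphk1 and Spns2 were higher in epithelium. Sphk1 read 5.85, 5.82 and 5.22, above every lymphocyte array, a 3.25-fold difference (adjusted p = 1.55e-09). The lymphocyte levels of Sphk1 lay below the median of all values, so this fold is a ratio of deposited values. A second, dim probe set of Sphk1 averaged 4.02 in epithelium, also below that median. Its difference of 0.44 was not called. Spns2 read 7.31, 8.28 and 7.59, also above every lymphocyte array, a 5.48-fold difference (adjusted p = 3.28e-09). S1pr2 read 6.75, 7.25 and 7.04, level with gland CD4 T cells, and its difference from the mean of both subsets was 0.96, called only without epithelial replicate 1 (1.09) or without gland CD4 T replicate 3 (1.01). Sgpl1 read 7.33, 7.37 and 7.23, the lowest of the 5 groups, with a difference of -0.98, just under the 2-fold minimum. It passed that minimum with arrays centred on their medians (-1.30) or quantile normalized (-1.09).

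The S1P phosphatase genes had high levels in the same arrays. Of the 21 other genes of S1P and ceramide metabolism, 8 were higher and 1 was lower in epithelium. Of all genes, 14.9% were called higher and 10.3% lower in this comparison. The median of the list was 0.66, beside -0.10 for all genes. Plpp3 was higher by 5.94, Plpp1 by 4.60, the ceramidase gene Acer2 by 3.32 and Plpp2 by 3.10, while the ceramide synthase gene Cers4 was lower by 1.98. Of 12 endothelial genes, 10 were higher in these arrays as well, with a median of 4.54, among them Tek (7.40) and Kdr (5.47), the receptors of angiopoietins and of vascular endothelial growth factor. All 4 myoepithelial genes measured were also higher (median 4.04), with mean levels of 8.27 to 8.66 in the epithelial arrays and 3.83 to 4.81 in the lymphocyte arrays. Of 6 fibroblast genes 4 were higher (median 3.12), with mean levels of 5.86 to 6.43 and 2.84 to 3.17. The part of endothelial, myoepithelial and fibroblast RNA in the levels of Spns2, Sphk1 and the phosphatase genes was not tested.

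Within a tissue, S1pr3 and Spns2 had the largest differences of the 9 genes between the lymphocyte subsets. In the gland 4 of 9 genes were called, beside 9.70% of all genes, 3 of them higher in B cells (3.73%) and 1 lower (5.97%). The arrays did not overlap for 6 of 9 (31.6%). S1pr3 was 10.5-fold, Spns2 7.17-fold and Klf2 2.65-fold higher in B cells, and S1pr2 was 4.05-fold lower (adjusted p = 6.25e-05). In the spleen 2 of 9 were called, beside 9.15% of all genes, namely S1pr3 (53.8-fold higher in B cells) and Spns2 (13.3-fold higher). No member was called lower in spleen B cells, beside 4.63% of all genes called higher and 4.52% lower. The arrays did not overlap for 7 of 9 (40.0%). The CD4 T cell levels of S1pr3 and Spns2 lay below the median of all values in both tissues, and the deposited values carry no detection calls, so these folds are ratios of deposited values. The second, dim probe set of S1pr3 differed between the subsets by 0.21 in the gland and 0.26 in the spleen and was not called. S1pr1 was not called between the subsets in the gland (0.16, interval -0.29 to 0.60). In the spleen it was -0.65 in B cells relative to CD4 T cells (interval -1.17 to -0.13, adjusted p = 0.0724), with no overlap of the arrays.

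Ordered by mean level, the 5 groups took a different order for each gene. For S1pr1 spleen CD4 T cells stood first (8.17 ± 0.31, SD), followed by gland B cells (7.95 ± 0.34), gland CD4 T cells (7.79 ± 0.45) and spleen B cells (7.53 ± 0.22), and no neighbours among these differed beyond their spread. For S1pr2 gland CD4 T cells (7.06 ± 0.22) and epithelium (7.01 ± 0.25) came first and overlapped, followed by spleen CD4 T cells (5.93 ± 0.16), spleen B cells (5.85 ± 0.91) and gland B cells (5.04 ± 0.47). For S1pr3 the order was spleen B cells (8.76 ± 0.13), gland B cells (6.61 ± 0.34), epithelium (5.30 ± 0.38) and then both CD4 T groups, which overlapped. These steps exceeded the spread except the last.

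For S1pr4 the order was spleen CD4 T cells (8.80 ± 0.09), spleen B cells (8.37 ± 0.15), gland CD4 T cells (8.26 ± 0.17), gland B cells (7.73 ± 0.12) and epithelium, and spleen B cells and gland CD4 T cells overlapped. For Klf2 gland B cells (9.54 ± 0.33) stood above spleen CD4 T cells (8.52 ± 0.22), gland CD4 T cells (8.14 ± 0.40) and spleen B cells (8.10 ± 0.10), and these last 3 overlapped with their neighbours, with epithelium lowest (6.79 ± 0.33). For Cd69 the order was gland B cells (10.58 ± 0.05), gland CD4 T cells (10.19 ± 0.07), spleen CD4 T cells (9.03 ± 0.05) and spleen B cells (8.60 ± 0.06), with no overlap between neighbours, although no step among these passed with all arrays. Spns2 was highest in epithelium (7.73 ± 0.50), followed by the B cell groups, which overlapped at 6.69 each, and lowest in spleen CD4 T cells (2.95 ± 0.19). Sgpl1 lay at 8.24 to 8.35 in both B cell groups and gland CD4 T cells, which overlapped, and at 7.69 ± 0.07 in spleen CD4 T cells. Sphk1 was highest in epithelium (5.63 ± 0.35), and the lymphocyte groups overlapped.

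Across the 17 arrays, each gene was set beside the genes whose levels ran most alike, by Pearson correlation. These correlations are descriptions over arrays that share the 5 groups. S1pr1 ran closest to Tle4, Cbl and Etv3 (r = 0.978 to 0.9865), S1pr4 to Tnfaip8l2, Limd2 and Abcg3 (0.988 to 0.9905), and S1pr3 to Pcp4, Rogdi and Edaradd (0.97 to 0.983). Cd69 ran closest to P2ry10, Stat4 and H60b (0.978 to 0.984), with epithelial replicate 1 included. Spns2 ran closest to Rhobtb1, Rhoq and Ckap4 (0.987 to 0.989) and Sphk1 to Abi3bp, Capn6 and Igfbp2 (0.9845 to 0.987). The closest genes were less alike for S1pr2 (Gdpd5, Endod1 and Chst2, 0.885 to 0.904), Klf2 (Smcr8, Polr3d and Ltv1, 0.923 to 0.933) and Sgpl1 (Tbc1d14, Nfkbie and Gng2, 0.944 to 0.953).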

How the data were processed

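Per the submitters' processing notes, Partek and RMA were used by the authors to make the deposited log2 values, which cover 45141 probe sets and run from 0.492 to 12.9; versions are not given in the sources used here. Probe sets took their gene from the platform annotation, updated through identifiers of assembly GRCm38.p6. A single gene was given for 28898 (28689 by identifier), several for 551 and none for 15588, and 104 were controls. Keeping the brightest probe set of each gene left 17097 genes.

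The fit used limma 3.58.1 (lmFit and eBayes, 12 residual and 3.17 prior degrees of freedom) under R 4.3.3, with 5 group means, 6 comparisons and Benjamini-Hochberg adjustment over all genes. A gene called higher in epithelium also had to exceed each lymphocyte group. A fold change is the difference between 2 group means of log2 values. The number of arrays limits the precision, with a median SE of 0.121 for gland against spleen. The pipeline was tested on simulated data. The members, gene lists and tests were chosen with earlier results of these data known. Every member is named, and from each list the called genes that changed most, at most 4 per comparison, plus genes needed to show what did not pass. Same-numbered replicates did not deviate together, so arrays were taken as independent. The alternatives were no fold minimum, a filter on dim genes, other probe set rules, centring, quantile normalization, trend and robust eBayes, array weights, a replicate block, only the compared arrays, and each array left out. Figures were drawn with matplotlib 3.10.9.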

Additional observations from a re-analysis of the deposited data

Results flagged for a closer look

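Among the groups of 4 arrays, 18 gene and group pairs were examined for an array far from the others, and chance gives about 1 in 20. Spns2 in gland CD4 T cells stood out, with replicate 4 at 3.42 and the other arrays at 3.96 to 4.04. The gap to the nearest array was 0.867 of the whole range, above the critical value of 0.829. For 3 genes a difference between the gland against spleen changes of CD4 T cells and B cells was called by the test of the difference itself. S1pr2 differed by 1.94, S1pr3 by 2.35 and Klf2 by -1.82 (CD4 T minus B, log2). The S1pr2 estimates had opposite signs, the S1pr3 and Klf2 changes were called in B cells alone, and the 3 differences kept their call under each alternative run.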

How the results depend on the processing

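No gene of the 9 reversed direction while called. The number called between gland and spleen CD4 T cells, 1 with all arrays, was 3 with no fold minimum, 0 with arrays centred on their medians, 2 with the compared arrays alone, and 0 to 2 when each array was left out. The counts of the other 5 comparisons stayed within 1.5 times under every alternative run. The numbers did not pair the arrays: 31 same-numbered pairs had correlations of -0.40 to 0.21, with 2 above 0.1, and in 9 of the 31 pairs the closest match was the array's own number. With the replicate block 2 genes were called in B cells, 1 in CD4 T cells, 3 in the difference, 6 in epithelium, 4 between gland subsets and 2 between spleen subsets, as without it. Over all genes, no fold minimum gave 3019 calls in B cells against 714, 3995 in CD4 T cells against 1191, 1731 in the difference against 869, 10882 in epithelium against 4299, 5196 in the gland against 1659 and 3843 in the spleen against 1565. All probe sets in 1 fit gave 1901, 7149, 2599 and 2387 for CD4 T cells, epithelium, gland and spleen. Centring moved the median of all genes from -0.03 to -0.19 in CD4 T cells, from -0.02 to -0.15 in the difference, from -0.10 to -0.42 in epithelium and from 0.04 to 0.16 between gland subsets, and the share of calls that were higher from 76.7% to 64.0%, 76.1% to 64.1% and 59.1% to 42.7% in the first 3. The deposited values carry no background signal, so levels under the median of all values have no order shown to be above background.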
